A study of Mus musculus with 12 samples.

Results

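The mouse genome encodes a family of collagen chains, and 44 protein-coding genes with a symbol of the form Col, digits, a, digits were taken from the 55421 Ensembl genes of the count table. They were divided into 11 fibrillar, 9 basement membrane and 24 other collagens, and all were followed over 12 RNA-seq libraries of MOC2, a mouse oral squamous cell carcinoma line. The libraries form 4 groups of 3: the derivative MOC2-25, labelled EV-proficient (able to release extracellular vesicles, EVs), and the derivative MOC2-27, labelled EV-deficient, each given DMSO or 600 nM paclitaxel for 48 h, which the labels describe as a way to induce senescence. Each EV label stands for 1 derivative line, so a difference between labels cannot be told apart from a difference between 2 lines, and the sources used here do not name the gene behind the EV block. The cells were grown in vitro, in a hormone- and serum-supplemented medium that all 4 groups shared. The labels number the replicates and do not say that they came from separate cultures, so p-values measure only the spread between these libraries.

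Collagens are matrix proteins whose chains wind around each other into a helix. Fibrillar chains, the bulk of connective tissue, are made mostly by fibroblasts; type IV chains build the sheet under epithelia, and the fibril-associated, short-chain, beaded-filament and transmembrane collagens link fibrils, line vessels or anchor cells. Carcinoma cells of epithelial origin usually make type IV, VII and XVIII collagen themselves, and chains must be hydroxylated, folded with the chaperone Hsp47 (gene Serpinh1) and secreted before they assemble. Paclitaxel stabilises microtubules and blocks mitosis.

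Library totals ran from 23263472 to 62955757 counts, the lowest in EV-proficient paclitaxel replicate 3. The authors' table has an added dngfr row, and the labels do not say which derivative carries that sequence. It gave 5.72, 9.07 and 12.2 CPM (read counts scaled to a common library size) in the EV-proficient DMSO libraries and 2.47, 3.5 and 3.76 CPM in the EV-proficient paclitaxel libraries. It gave 1.89, 2.002 and 2.54 CPM in the EV-deficient DMSO libraries and 10.7, 9.62 and 12.4 CPM in the EV-deficient paclitaxel libraries, so the row was high under 1 label in DMSO and under the other in paclitaxel. Every direction tied to an EV label, and every paclitaxel effect within a label, therefore holds for the libraries as labelled; the mean of the paclitaxel effects under both labels does not depend on which group of a treatment carries which label, and it is given beside the main members or after the interaction. Of 7 epithelial markers, Krt8, Krt18, Epcam, Cdh1 and Krt14 had group means of at least 80.04 CPM, while the basal squamous markers Krt5 and Trp63 stayed at or below 0.142 CPM. The 7 epithelial markers summed to 4873 to 5488 CPM under DMSO and to 3019 to 3701 CPM under paclitaxel. Paclitaxel against DMSO, in EV-proficient and then in EV-deficient libraries, gave log2 fold changes of -1.3 and -0.9 for Krt8, -0.3 and -1.04 for Krt18, -0.64 and -0.13 for Cdh1, and 1.0 and 0.29 for Epcam, each past the threshold; the EV-deficient value of Cdh1 is smaller than the 0.18 by which upper-quartile scaling moved the median of all genes there. Krt14 fell in EV-deficient libraries alone, from a mean of 681 to 80.04 CPM (log2 fold change -3.09), with group means of 191 and 191 CPM in EV-proficient libraries. The 8 fibroblast markers summed to 1.44 to 2.52 CPM under DMSO and 4.53 to 7.05 CPM under paclitaxel. The 4 endothelial markers summed to 1.77 to 2.6 and 2.75 to 4.35 CPM in the same order. The 5 leukocyte markers summed to 6.63 to 9.74 and 22.4 to 39.9 CPM, chiefly from Cd68, which macrophages share with many lysosome-rich cells, while the T cell marker Cd3e was at most 0.0146 CPM in group mean. The part of these markers in the paclitaxel results was not tested.

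Basement membrane chains made up most of the collagen message. All 44 genes together summed to 2982, 3129 and 2884 CPM in EV-proficient DMSO, 2423, 2564 and 2207 in EV-proficient paclitaxel, 2827, 2686 and 2849.5 in EV-deficient DMSO and 2057, 2311 and 2233 in EV-deficient paclitaxel. On this scale each paclitaxel library lay below each DMSO library under both labels. As a percentage of all counts of a library, with no further scaling, the EV-deficient values overlapped, at 0.252, 0.245 and 0.26% under DMSO and 0.232, 0.261 and 0.256% under paclitaxel, and so the lower EV-deficient sum depends on the scaling. The basement membrane share of collagen counts averaged 92.6% ± 0.0969 (SD, n = 3) in EV-proficient libraries given DMSO and 74.4% ± 1.96 in those given paclitaxel. The EV-deficient shares were 86.9% ± 0.584 with DMSO and 84% ± 1.88 with paclitaxel. The rest was nearly all from the 24 other collagens, and chiefly from Col8a1. The 11 fibrillar genes summed to 8.75, 7.92 and 9.42 CPM in EV-proficient DMSO and 11.1, 11.7 and 7.28 CPM in EV-proficient paclitaxel. They summed to 6.71, 6.86 and 7.54 CPM in EV-deficient DMSO and 17.7, 16.7 and 21.9 CPM in EV-deficient paclitaxel, the highest of the groups, at 0.856% of collagen counts. Sums and shares are descriptions without a test, and in bulk RNA fewer cells of a kind and less RNA per cell cannot be told apart.

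**Figure D1:**
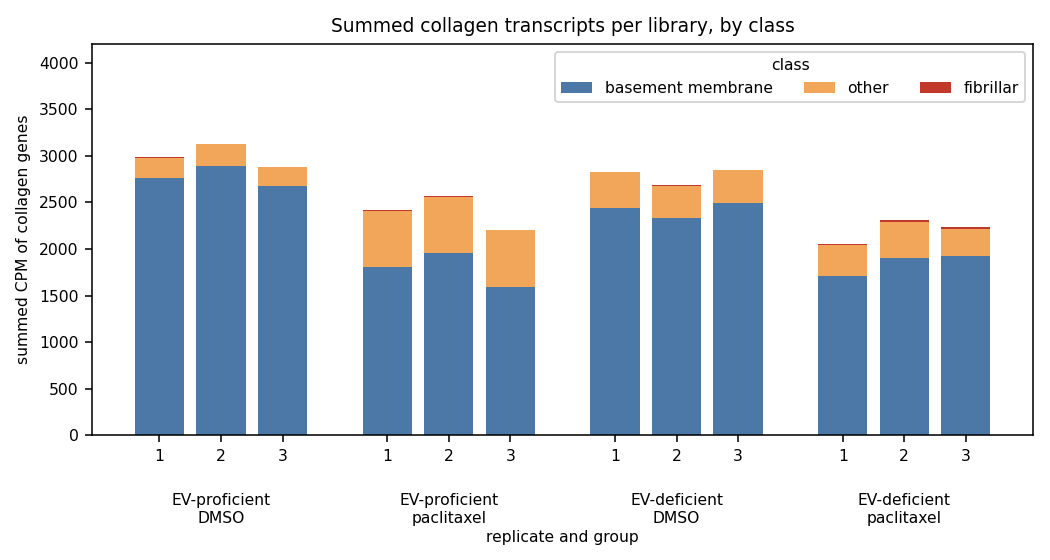
Summed CPM of the 44 collagen genes in each library (bars, from 0), stacked by class, for replicates 1 to 3 of each group. Basement membrane genes fill most of every bar, the other collagens take their largest part in EV-proficient paclitaxel, and the fibrillar class is a thin line at the top.

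Paclitaxel was compared with DMSO within each label, which asks how the collagen transcripts responded to the drug. Of the 44 genes, 36 had enough counts to be tested and 8 did not. In EV-proficient libraries 23 passed the test at an adjusted p under 0.05, 18 of them higher and 5 lower under paclitaxel; over all 18108 genes tested, 58.2% passed, 31.1% higher and 27.1% lower. In EV-deficient libraries 25 passed, 19 higher and 6 lower, against 62.9% of all genes tested, 32.4% higher and 30.5% lower. As shares of the 36, 63.9% and 69.4% passed, near the background, while 50% and 52.8% passed as higher. The median log2 fold change of the 36 was 0.98 in EV-proficient and 1.17 in EV-deficient libraries, beside 0.05 and 0.07 over all genes, and both collagen medians were the same with genes at the count floor set to their lower bound. A collagen that is nearly silent enters the test only through a group in which it is higher, so these counts and medians describe the 36 and not the family. For the mean of both paclitaxel effects, a comparison added after the data were seen, 27 passed, 23 higher and 4 lower, against 68.4% of all genes, 37.1% higher and 31.3% lower. Both within-label tests found 11 genes higher: Col4a3, Col4a4, Col4a5, Col5a2, Col8a2, Col9a2, Col11a1, Col16a1, Col20a1, Col24a1 and Col25a1, of which Col5a2 and Col24a1 lost their EV-proficient call under alternatives given with each gene. Both found Col4a1 and Col4a2 lower, and 5 genes passed in opposite directions (Col5a1, Col5a3, Col12a1, Col18a1 and Col27a1). Of these 5, all but Col5a1 lost a call within a label under alternatives given with each gene, so this number depends on the processing. Another 12 passed under 1 label, and Col1a2, Col3a1, Col6a3, Col14a1, Col17a1 and Col23a1 passed under neither. Over all genes tested 18.9% were higher in both, 18.5% lower in both, 7.09% opposite, 32% called under 1 label and 23.4% under neither. The collagen shares of the 36 were 30.6%, 5.56%, 13.9%, 33.3% and 16.7% in the same order, and these shares were not tested against each other. In EV-deficient libraries higher genes were 51.5% of all that passed, and 63.4% under upper-quartile scaling.

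**Figure D2:**
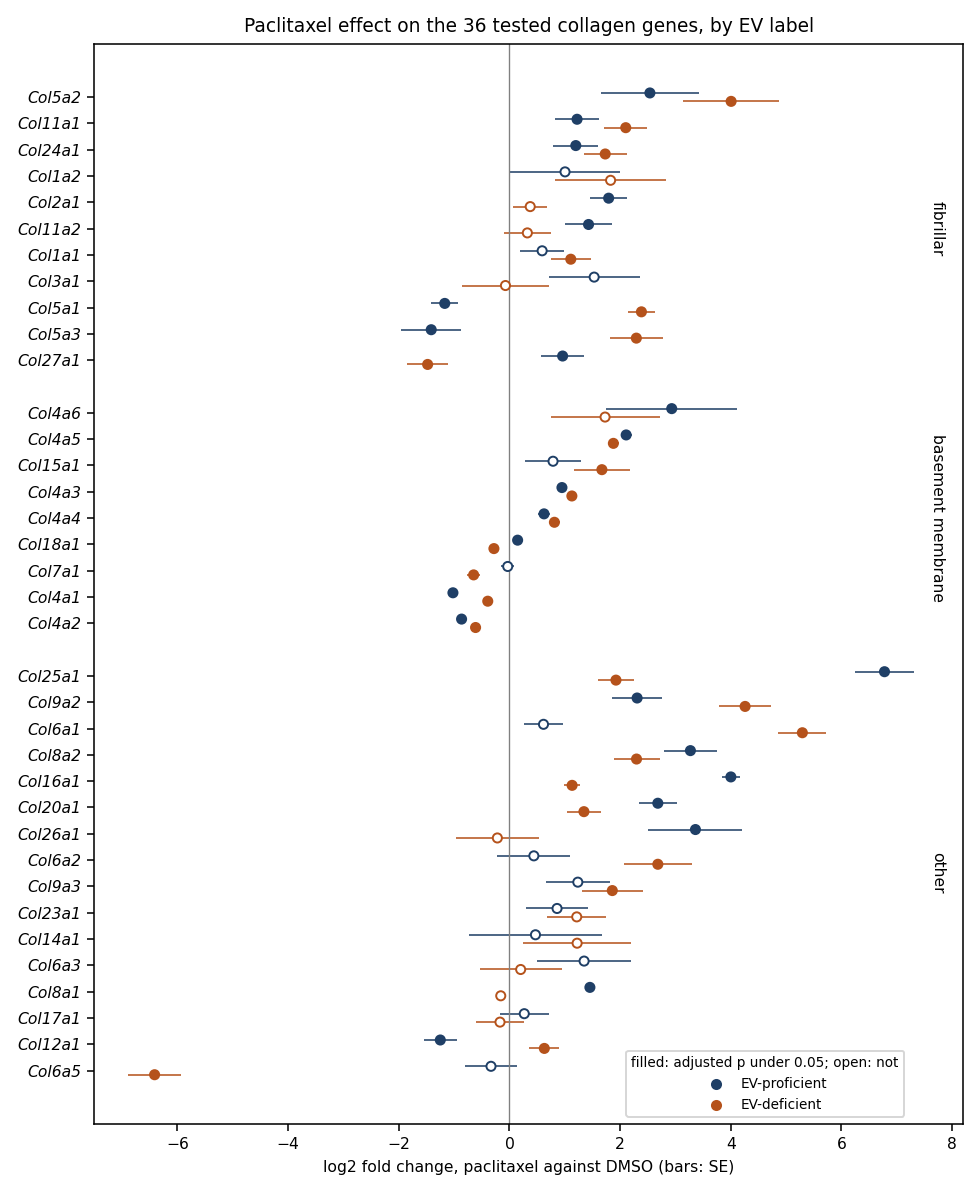
Log2 fold change of each of the 36 tested collagen genes, paclitaxel against DMSO (points, with SE as bars), in EV-proficient (blue) and EV-deficient (orange) libraries, by class; filled points have an adjusted p under 0.05. Col4a1 and Col4a2 lie left of 0 and Col4a3, Col4a4 and Col4a5 right of it under both labels, and Col5a1, Col5a3, Col12a1, Col18a1 and Col27a1 lie on opposite sides.

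Type IV collagen has 6 chains, encoded by gene pairs that start next to each other on opposite strands. In the GENCODE annotation of GRCm38, Col4a1 (ENSMUSG00000031502, chr8:11198423-11312826, minus strand) and Col4a2 (ENSMUSG00000031503, chr8:11312805-11449287, plus strand) overlap by 22 bases at their starts. Col4a4 (ENSMUSG00000067158, chr1:82448423-82586849, minus strand) and Col4a3 (ENSMUSG00000079465, chr1:82586921-82722059, plus strand) are 71 bases apart, and Col4a5 (ENSMUSG00000031274, chrX:141475385-141689234, plus strand) starts 1308 bases from Col4a6. Because Col4a3 and Col4a4 both rose with paclitaxel, Col4a3 by more, the whole stretch between their starts is printed (chr1:82586850-82586920, minus strand of GRCm38.p6, the strand of Col4a4). The bases before the start of Col4a5 (chrX:141475169-141475384, plus strand) are printed with it. Col4a5 was the type IV chain with the largest change among those above the count floor. Both come from RefSeq promoter sequences, 5′ to 3′, and capitals mark a CCAAT match.
Col4a3 to Col4a4 spacer: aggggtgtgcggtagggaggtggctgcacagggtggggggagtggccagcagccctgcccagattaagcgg
Col4a5: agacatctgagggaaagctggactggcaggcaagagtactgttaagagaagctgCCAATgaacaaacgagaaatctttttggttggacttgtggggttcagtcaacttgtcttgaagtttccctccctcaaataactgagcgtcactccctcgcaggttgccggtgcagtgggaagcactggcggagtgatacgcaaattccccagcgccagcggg
Both strands were searched for 4 short motifs: CCAAT (known as the CCAAT box), GGGCGG (a GC box), TATAAA (a form of the TATA box) and TGANTCA (the AP-1 motif). The spacer held none of them, and its GC content was 69.0%; the Col4a5 stretch held 1 CCAAT and had a GC content of 52.3%. Both stretches are shorter than the 250-base windows used for the background share, so no share is set beside them.

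The chains of the common type IV network fell under paclitaxel and those of the specialised network rose. Col4a1, which with Col4a2 forms the network of nearly all basement membranes, stood at 1309, 1417 and 1264 CPM in EV-proficient DMSO and 657, 715 and 592 CPM in EV-proficient paclitaxel. The EV-deficient values were 1035, 958 and 1012 CPM under DMSO and 730.2, 753 and 806 CPM under paclitaxel. DMSO and paclitaxel did not overlap under either label, and EV-proficient DMSO was the highest group. The log2 fold change with paclitaxel was -1.02 ± 0.07 (SE, adjusted p = 5.59e-11) in EV-proficient and -0.39 ± 0.07 (SE, adjusted p = 3.31e-05) in EV-deficient libraries, the second of which was -0.21 with upper-quartile scaling. The fall was smaller under the EV-deficient label, with an interaction of 0.63 ± 0.10 (SE, adjusted p = 1.84e-05). Col4a2 stood at 904, 984 and 910.4 CPM in the EV-proficient DMSO libraries and 520.4, 555 and 461 CPM in the EV-proficient paclitaxel libraries. Its EV-deficient values were 825, 789 and 859 CPM under DMSO and 488, 558 and 571 CPM under paclitaxel. Paclitaxel libraries were again all below DMSO libraries, with log2 fold changes of -0.87 ± 0.07 (SE, adjusted p = 1.38e-09) and -0.61 ± 0.07 (SE, adjusted p = 1.63e-07). The interaction of Col4a2 was 0.25 ± 0.10 (SE, adjusted p = 0.051), short of the threshold, and it passed with either other scaling, DESeq2, limma-voom, the replicate block or the filter of 1 CPM (0.25 to 0.38), and without EV-proficient paclitaxel replicate 1 (0.30) or 2 (0.36) or EV-deficient paclitaxel replicate 1 (0.35) or 2 (0.28). Averaged over both labels, the paclitaxel effects were -0.71 ± 0.05 (SE, adjusted p = 2.56e-11) for Col4a1 and -0.74 ± 0.05 (SE, adjusted p = 2.84e-11) for Col4a2.

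Col4a3, Col4a4 and Col4a5 form the network of kidney glomerulus, lung and inner ear. Col4a5 stood at 14.3, 14.2 and 14.4 CPM in the EV-proficient DMSO libraries and 64.7, 69.9 and 49.6 CPM in the EV-proficient paclitaxel libraries. The EV-deficient values of Col4a5 were 16.3, 17.7 and 17.3 CPM under DMSO and 59.8, 66.8 and 62.1 CPM under paclitaxel. The groups given paclitaxel lay wholly above those given DMSO, by 2.11 ± 0.10 (SE, adjusted p = 3.62e-13) and 1.88 ± 0.10 (SE, adjusted p = 5.98e-13) on the log2 scale. The interaction, -0.23 ± 0.14 (SE, adjusted p = 0.193), did not pass, although it did without EV-proficient paclitaxel replicate 3 (-0.33). Col4a3 stood at 27, 24.3 and 25.5 CPM in the EV-proficient DMSO libraries and 49.8, 51 and 47.3 CPM in the EV-proficient paclitaxel libraries. Its EV-deficient values were 22.9, 23.4 and 24.8 CPM under DMSO and 47.9, 61.2 and 46.2 CPM under paclitaxel. Its log2 fold changes were 0.95 ± 0.09 (SE, adjusted p = 1.24e-08) and 1.13 ± 0.09 (SE, adjusted p = 5.18e-10), with no overlap of DMSO and paclitaxel libraries. Col4a3 has 5.65% of its exon bases under an antisense transcript, and whether strand was used in counting is not given in the sources used here. Col4a4 stood at 35.9, 33.4 and 29.5 CPM in the EV-proficient DMSO libraries and 50.5, 57.1 and 44.4 CPM in the EV-proficient paclitaxel libraries. The EV-deficient values of Col4a4 were 33, 30.4 and 30.6 CPM under DMSO and 52.1, 65.2 and 47.9 CPM under paclitaxel. Its log2 fold changes were 0.62 ± 0.11 (SE, adjusted p = 3.07e-05) and 0.81 ± 0.10 (SE, adjusted p = 6.84e-07), also without overlap. The interaction was 0.18 ± 0.13 (SE, adjusted p = 0.289) for Col4a3 and 0.19 ± 0.15 (SE, adjusted p = 0.346) for Col4a4, and neither passed. Averaged over both labels, the paclitaxel effect was 1.99 ± 0.07 (SE, adjusted p = 1.22e-15) for Col4a5, 1.04 ± 0.06 (SE, adjusted p = 5.17e-12) for Col4a3 and 0.72 ± 0.07 (SE, adjusted p = 2.1e-08) for Col4a4. Col4a6, the partner of Col4a5 in skin and smooth muscle, had a highest library value of 0.41 CPM. It passed as higher under paclitaxel in EV-proficient libraries (adjusted p = 0.0389), without overlap; the DMSO libraries there were at the floor of 3 counts per library, and the paclitaxel mean was at least 2.59-fold higher than that floor. In EV-deficient libraries its groups overlapped and it did not pass (adjusted p = 0.134). The fitted log2 fold change in EV-proficient libraries was 2.93; the call was lost with DESeq2 (3.01), without EV-proficient DMSO replicate 2 (2.36), without EV-proficient DMSO replicate 3 (2.45), without EV-proficient paclitaxel replicate 1 (2.63) or without EV-proficient paclitaxel replicate 2 (2.73), the value was 6.33 without EV-proficient DMSO replicate 1, and the gene was not tested with the filter of 1 CPM or in the fit of only the groups compared.

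Set on a per-length scale (CPM per kilobase of annotated exon), the specialised chains remained minor in every group. In EV-proficient DMSO the level was 178 ± 10.5 (SD, n = 3) for Col4a1 and 141 ± 6.69 for Col4a2, against 2.13 ± 0.014 for Col4a5, 2.57 ± 0.132 for Col4a3 and 3.1 ± 0.307 for Col4a4. The per-length ratio of Col4a1 to Col4a5 was, under DMSO, 83.7 ± 5.45 (SD, n = 3) for EV-proficient and 52.8 ± 4.33 for EV-deficient libraries. It was 9.69 ± 0.901 in EV-proficient paclitaxel and 10.9 ± 0.771 in EV-deficient paclitaxel, so all 6 paclitaxel libraries lay below all 6 DMSO libraries. The ratio of Col4a1 to Col4a3 went from 69.6 ± 7.11 to 17.7 ± 1.02 in EV-proficient and from 56.5 ± 3.4 to 20.01 ± 3.44 in EV-deficient libraries. Col4a1 to Col4a2 had group means near 1, of 1.08 ± 0.0334 at the lowest and 1.26 ± 0.0286 at the highest. The ratio of Col4a3 to Col4a4 went from 0.832 ± 0.0788 to 1.05 ± 0.0923 in EV-proficient libraries. It went from 0.807 ± 0.0632 to 1.003 ± 0.0239 in EV-deficient libraries, and paclitaxel libraries lay above DMSO libraries under both labels. No ratio was taken for the pair of Col4a5 and Col4a6, where Col4a6 had group means of 0.00306 to 0.0261 CPM per kilobase. These ratios are descriptions and were not tested.

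**Figure D3:**
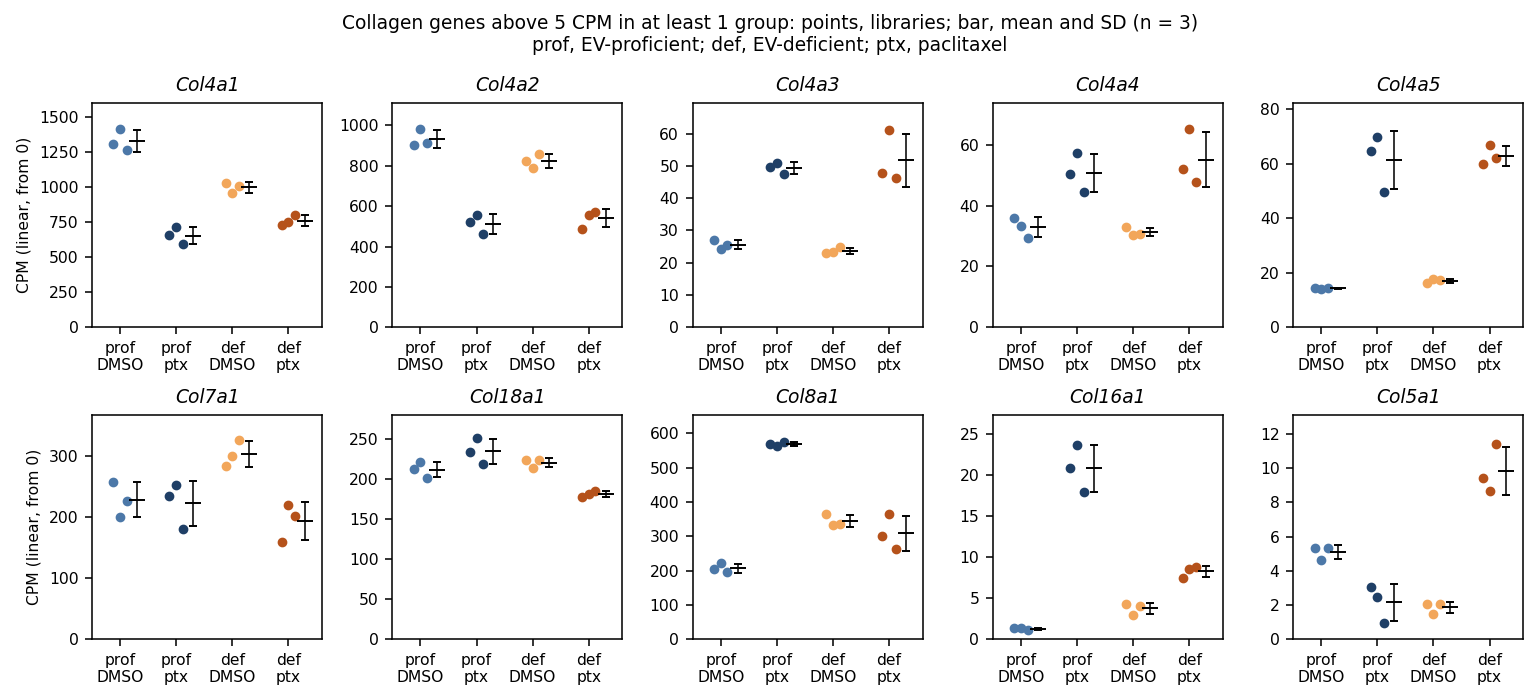
CPM (linear axis from 0) of the 10 collagen genes with a group mean of at least 5 CPM; points are libraries, and the bar beside them is the mean with SD (n = 3). Col4a1 and Col4a2 are lower and Col4a3, Col4a4 and Col4a5 higher in both paclitaxel groups, Col8a1 and Col16a1 are highest in EV-proficient paclitaxel, and Col5a1 is highest in EV-deficient paclitaxel.

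Col7a1 (ENSMUSG00000025650, chr9:108953586-108984875, plus strand) makes the anchoring fibrils that tie squamous epithelium to the stroma below. Col7a1 stood at 256, 199 and 227 CPM in the EV-proficient DMSO libraries and 233, 252 and 181 CPM in the EV-proficient paclitaxel libraries. Its EV-deficient values were 283, 299 and 325 CPM under DMSO and 159, 219 and 201 CPM under paclitaxel. Paclitaxel libraries lay below DMSO libraries only under the EV-deficient label. The log2 fold change there was -0.65 ± 0.11 (SE, adjusted p = 3.65e-05), in EV-proficient libraries -0.03 ± 0.11 (SE, adjusted p = 0.83), and the interaction -0.62 ± 0.16 (SE, adjusted p = 0.00366). Averaged over both labels it was -0.34 ± 0.08 (SE, adjusted p = 0.00076), and -0.22 with upper-quartile scaling. Under DMSO the EV-deficient libraries were higher by 0.41 ± 0.11 (SE, adjusted p = 0.0109) on the log2 scale, a call lost with DESeq2 (0.39), without EV-proficient DMSO replicate 2 (0.33) or without EV-deficient DMSO replicate 3 (0.36). Col18a1 (ENSMUSG00000001435, chr10:77052178-77166548, minus strand) is the source of the fragment endostatin. Col18a1 stood at 213, 221 and 202 CPM in the EV-proficient DMSO libraries and 234, 251 and 219 CPM in the EV-proficient paclitaxel libraries. The EV-deficient values of Col18a1 were 224, 214 and 224 CPM under DMSO and 178, 181 and 186 CPM under paclitaxel. Only the EV-deficient paclitaxel libraries stood apart from the rest, all below every other library. The log2 fold change was -0.28 ± 0.06 (SE, adjusted p = 0.000347) in EV-deficient libraries, a call lost with upper-quartile scaling (-0.10). In EV-proficient libraries it was 0.15 ± 0.06 (SE, adjusted p = 0.0414), where the groups overlapped, and the call was lost with median-of-ratios factors (0.12), with DESeq2 (0.13), without EV-proficient DMSO replicate 1 (0.15), without EV-proficient DMSO replicate 3 (0.11), without EV-proficient paclitaxel replicate 1 (0.10) or without EV-proficient paclitaxel replicate 2 (0.04). The interaction was -0.43 ± 0.09 (SE, adjusted p = 0.000336). Averaged over both labels it was -0.07 ± 0.04 (SE, adjusted p = 0.171), which passed without EV-proficient paclitaxel replicate 2 (-0.13) or without EV-deficient paclitaxel replicate 3 (-0.10) and was of opposite sign with upper-quartile scaling (0.06). Col15a1, its close relative of vessel and muscle basement membranes, had group means of 0.15 to 0.511 CPM. Col15a1 passed as higher under paclitaxel in EV-deficient libraries, at 1.67 ± 0.51 (SE, adjusted p = 0.00725), without overlap. In EV-proficient libraries its groups overlapped and it did not pass, at 0.79 ± 0.50 (SE, adjusted p = 0.186). Averaged over both labels Col15a1 was 1.23 ± 0.36 (SE, adjusted p = 0.00449), and it was not tested with the filter of 1 CPM.

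Col8a1 (ENSMUSG00000068196, chr16:57624258-57754737, minus strand) encodes a short-chain collagen of hexagonal networks, known from vessel walls and the cornea, and it was the most abundant collagen outside the basement membrane class. Col16a1 (ENSMUSG00000040690, chr4:130047840-130099283, plus strand), a fibril-associated collagen of skin and cartilage, had the largest rise in EV-proficient libraries among collagens above the count floor. The bases before their annotated starts are printed because both genes were highest in EV-proficient paclitaxel; they are RefSeq sequences of GRCm38.p6 at chr16:57754738-57754987, minus strand, and chr4:130047775-130047839, plus strand. Capitals mark matches to the GC box GGGCGG on either strand (on the opposite strand it reads as CCGCCC).
Col8a1: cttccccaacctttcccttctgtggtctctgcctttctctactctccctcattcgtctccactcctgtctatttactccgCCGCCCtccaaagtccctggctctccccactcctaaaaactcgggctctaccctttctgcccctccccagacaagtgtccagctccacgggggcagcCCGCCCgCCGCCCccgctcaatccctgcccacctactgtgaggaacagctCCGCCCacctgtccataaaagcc
Col16a1: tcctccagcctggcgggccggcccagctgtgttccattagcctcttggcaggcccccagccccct
The Col8a1 window held the GC box GGGCGG on either strand 4 times, a motif found in 32.7% of 32851 promoter windows of 250 bases; the other 3 motifs were not in it. The Col16a1 stretch of 65 bases, kept short by an annotated exon, held none of the 4 motifs. Among 38 promoter windows of 35 collagen genes, the GC box was in 22, the CCAAT box in 13, the TATA form in 5 and the AP-1 motif in 1; of all windows, 33.8% held the CCAAT box, 12.4% the TATA form and 6.75% the AP-1 motif. A match is a description of letters and not a site.

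Col8a1 and Col16a1 were both highest in EV-proficient paclitaxel and lowest in EV-proficient DMSO. Col8a1 stood at 206, 221 and 195 CPM in the EV-proficient DMSO libraries and 568, 563 and 575 CPM in the EV-proficient paclitaxel libraries. Its EV-deficient values were 364, 334 and 336 CPM under DMSO and 300.1, 365 and 263 CPM under paclitaxel. In EV-proficient libraries the groups were far apart, with a log2 fold change of 1.45 ± 0.09 (SE, adjusted p = 7.9e-12). In EV-deficient libraries they overlapped and the value was -0.16 ± 0.08 (SE, adjusted p = 0.108), which passed with no low-count filter (-0.20) or without EV-deficient paclitaxel replicate 2 (-0.29) and was of opposite sign with upper-quartile scaling (0.03). The interaction was -1.61 ± 0.12 (SE, adjusted p = 5.88e-10) and the average over both labels 0.65 ± 0.06 (SE, adjusted p = 3.04e-09). Col16a1 stood at 1.41, 1.34 and 1.14 CPM in the EV-proficient DMSO libraries and 20.9, 23.7 and 17.9 CPM in the EV-proficient paclitaxel libraries. The EV-deficient values of Col16a1 were 4.28, 3.02 and 4.03 CPM under DMSO and 7.51, 8.57 and 8.83 CPM under paclitaxel. Paclitaxel libraries exceeded DMSO libraries under both labels, by 4.0 ± 0.17 (SE, adjusted p = 6.85e-14) and 1.13 ± 0.15 (SE, adjusted p = 6.26e-07) on the log2 scale. The interaction was -2.87 ± 0.22 (SE, adjusted p = 1.17e-09) and the average 2.57 ± 0.11 (SE, adjusted p = 2.09e-14). Col8a2, the second short-chain partner, was far less abundant. Col8a2 stood at 0.171, 0.0479 and 0.146 CPM (EV-proficient DMSO), 1.21, 1.48 and 0.809 CPM (EV-proficient paclitaxel), 0.357, 0.313 and 0.132 CPM (EV-deficient DMSO) and 1.1, 1.47 and 1.44 CPM (EV-deficient paclitaxel). It rose under both labels without overlap, by 3.27 ± 0.48 (SE, adjusted p = 5.44e-06) and 2.3 ± 0.42 (SE, adjusted p = 5.48e-05). Col10a1, the collagen of hypertrophic cartilage, was not tested, with a highest library value of 0.283 CPM.

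The remaining fibril-associated collagens, which decorate fibrils of cartilage, tendon and skin, were expressed at a few CPM or less. Col20a1 stood at 0.512, 0.407 and 0.351 CPM (EV-proficient DMSO), 2.51, 3.71 and 1.9 CPM (EV-proficient paclitaxel), 0.696, 1.21 and 0.943 CPM (EV-deficient DMSO) and 1.79, 3.46 and 2.001 CPM (EV-deficient paclitaxel). Paclitaxel libraries were above DMSO libraries under both labels, by 2.68 ± 0.35 (SE, adjusted p = 9.04e-07) and 1.35 ± 0.31 (SE, adjusted p = 0.000696). The interaction, -1.34 ± 0.47 (SE, adjusted p = 0.0258), was lost with limma-voom (-1.39), without EV-proficient DMSO replicate 2 (-1.32), without EV-proficient DMSO replicate 3 (-1.24), without EV-deficient DMSO replicate 2 (-1.14), without EV-proficient paclitaxel replicate 2 (-0.99), without EV-deficient paclitaxel replicate 1 (-1.13) or without EV-deficient paclitaxel replicate 3 (-1.18). Col9a2 stood at 0.122, 0.287 and 0.117 CPM (EV-proficient DMSO), 0.771, 0.879 and 1.05 CPM (EV-proficient paclitaxel), 0.0357, 0.0834 and 0.175 CPM (EV-deficient DMSO) and 2.01, 1.88 and 1.71 CPM (EV-deficient paclitaxel). This chain of the cartilage collagen IX rose under both labels without overlap, by 2.31 ± 0.45 (SE, adjusted p = 0.000159) and 4.26 ± 0.47 (SE, adjusted p = 5.96e-08). Its interaction was 1.95 ± 0.68 (SE, adjusted p = 0.025), lost without EV-proficient DMSO replicate 2 (1.37), without EV-deficient DMSO replicate 1 (1.51) or without EV-deficient DMSO replicate 2 (1.85). Col12a1 stood at 2.44, 2.32 and 2.22 CPM (EV-proficient DMSO), 1.13, 0.896 and 0.89 CPM (EV-proficient paclitaxel), 2.69, 2.13 and 1.69 CPM (EV-deficient DMSO) and 3.88, 1.77 and 4.41 CPM (EV-deficient paclitaxel). Col12a1, a collagen of dense connective tissue, fell in EV-proficient libraries without overlap, with a log2 fold change of -1.25 ± 0.30 (SE, adjusted p = 0.00106). In EV-deficient libraries the groups overlapped; the value was 0.63 ± 0.27 (SE, adjusted p = 0.0464), and the call was lost with no low-count filter (0.59), with DESeq2 (0.65), with limma-voom (0.58), in a fit of only the groups compared (0.65), without EV-deficient DMSO replicate 2 (0.60), without EV-deficient DMSO replicate 3 (0.46), without EV-deficient paclitaxel replicate 1 (0.51) or without EV-deficient paclitaxel replicate 3 (0.38). The interaction was 1.88 ± 0.40 (SE, adjusted p = 0.000652). Col9a3 and Col14a1 had group means of 0.068 to 0.801 CPM, and Col9a3 passed as higher in EV-deficient libraries (1.86). In EV-proficient libraries Col9a3 was 1.24 ± 0.58 (SE, adjusted p = 0.074), also without overlap, and passed without EV-proficient DMSO replicate 3 (1.76); its interaction, 0.62 ± 0.80 (SE, adjusted p = 0.584), did not pass. Col9a1, Col19a1 and Col22a1 were not tested in the main fit, and no library exceeded 0.238 CPM for any of them. Without EV-proficient paclitaxel replicate 1, Col22a1 passed for paclitaxel in EV-proficient libraries, for the EV label under paclitaxel and for the interaction.

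Among the fibrillar collagens Col5a1 (ENSMUSG00000026837, chr2:27886425-28039514, plus strand) was the most abundant and changed direction between the labels. It encodes the chain that starts and limits the width of collagen I fibrils. The 250 bases before its start are shown (chr2:27886175-27886424, plus strand of GRCm38.p6, RefSeq), with GC box matches in capitals, because its interaction was the largest among collagens above 5 CPM.
Col5a1: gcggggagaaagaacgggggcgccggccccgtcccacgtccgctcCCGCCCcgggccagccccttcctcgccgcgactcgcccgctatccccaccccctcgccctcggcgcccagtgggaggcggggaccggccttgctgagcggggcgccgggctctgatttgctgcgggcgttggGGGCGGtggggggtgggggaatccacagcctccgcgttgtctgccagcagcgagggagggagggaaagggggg
The window held the GC box 2 times and had a GC content of 76.4%; the other 3 motifs were not in it. Col5a1 stood at 5.34, 4.62 and 5.36 CPM in the EV-proficient DMSO libraries and 3.04, 2.48 and 0.971 CPM in the EV-proficient paclitaxel libraries. Its EV-deficient values were 2.05, 1.5 and 2.08 CPM under DMSO and 9.41, 8.67 and 11.4 CPM under paclitaxel. In EV-proficient libraries the paclitaxel libraries were the lower, and in EV-deficient libraries the higher, without overlap in either. The log2 fold changes were -1.17 ± 0.24 (SE, adjusted p = 0.0003) and 2.38 ± 0.24 (SE, adjusted p = 1.95e-08), and the interaction was 3.55 ± 0.34 (SE, adjusted p = 3.65e-08). Averaged over both labels the value was 0.61 ± 0.17 (SE, adjusted p = 0.00331). Of its exon bases, 2.5% lie under antisense transcripts. Col5a3 stood at 0.317, 0.503 and 0.381 CPM (EV-proficient DMSO), 0.257, 0.0879 and 0.0809 CPM (EV-proficient paclitaxel), 0.125, 0.292 and 0.307 CPM (EV-deficient DMSO) and 1.27, 0.865 and 1.39 CPM (EV-deficient paclitaxel). Col5a3, another type V chain, was likewise highest in EV-deficient paclitaxel, with log2 fold changes of -1.41 ± 0.54 (SE, adjusted p = 0.0301), 2.29 ± 0.48 (SE, adjusted p = 0.000253) and an interaction of 3.71 ± 0.72 (SE, adjusted p = 0.000266). The fall in EV-proficient libraries was lost with no low-count filter (-1.39), with limma-voom (-1.52), in a fit of only the groups compared (-1.40), without EV-proficient DMSO replicate 2 (-1.21), without EV-proficient paclitaxel replicate 2 (-1.14) or without EV-proficient paclitaxel replicate 3 (-1.27), and was -2.24 without EV-proficient paclitaxel replicate 1. Col5a2 had 1 count in EV-proficient paclitaxel replicate 3, which overlapped the EV-proficient DMSO libraries; those held 2, 1 and 4 counts, a mean under the CPM of 3 counts, so the size of its log2 fold change there, 2.54 ± 0.88 (SE, adjusted p = 0.0174), is uncertain. The call was lost with limma-voom (2.30), without EV-proficient DMSO replicate 1 (2.39), without EV-proficient DMSO replicate 2 (2.14), without EV-proficient paclitaxel replicate 1 (2.20) or without EV-proficient paclitaxel replicate 2 (2.17), and the gene was not tested with the filter of 1 CPM or in the fit of only the groups compared. Col5a2 was at the floor of 3 counts per library in EV-deficient DMSO, and its mean in EV-deficient paclitaxel was at least 11.4-fold higher than that floor.

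The other fibrillar chains stayed at or below 2.004 CPM in every library. Col11a1 and Col24a1, chains of cartilage and of developing bone, rose under both labels. Col11a1 stood at 0.439, 0.287 and 0.293 CPM (EV-proficient DMSO), 0.672, 0.879 and 0.85 CPM (EV-proficient paclitaxel), 0.196, 0.354 and 0.241 CPM (EV-deficient DMSO) and 1.3, 1.19 and 0.919 CPM (EV-deficient paclitaxel). Its groups did not overlap, and the log2 fold changes were 1.22 ± 0.39 (SE, adjusted p = 0.011) and 2.1 ± 0.39 (SE, adjusted p = 6.56e-05). Col24a1 stood at 0.487, 0.335 and 0.381 CPM (EV-proficient DMSO), 1.05, 0.668 and 1.09 CPM (EV-proficient paclitaxel), 0.321, 0.375 and 0.504 CPM (EV-deficient DMSO) and 0.727, 1.51 and 1.74 CPM (EV-deficient paclitaxel). Its values were 1.2 ± 0.41 (SE, adjusted p = 0.015) and 1.73 ± 0.39 (SE, adjusted p = 0.000531), without overlap, the first of which was lost with limma-voom (1.11), without EV-proficient DMSO replicate 2 (1.08) or without EV-proficient paclitaxel replicate 1 (1.04). Col2a1 stood at 0.585, 0.263 and 0.732 CPM (EV-proficient DMSO), 1.8, 1.88 and 1.74 CPM (EV-proficient paclitaxel), 0.821, 1.17 and 1.03 CPM (EV-deficient DMSO) and 1.02, 1.58 and 1.31 CPM (EV-deficient paclitaxel). This main chain of cartilage rose in EV-proficient libraries by 1.79 ± 0.34 (SE, adjusted p = 0.000103); in EV-deficient libraries the groups overlapped and the value was 0.38 ± 0.31 (SE, adjusted p = 0.308). The interaction of Col2a1, -1.42 ± 0.46 (SE, adjusted p = 0.0171), was lost without EV-proficient DMSO replicate 2 (-1.10). Col11a2 stood at 0.439, 0.742 and 0.41 CPM (EV-proficient DMSO), 1.38, 2.004 and 0.85 CPM (EV-proficient paclitaxel), 0.625, 0.688 and 0.395 CPM (EV-deficient DMSO) and 0.671, 0.368 and 1.08 CPM (EV-deficient paclitaxel). Col11a2, the second cartilage type XI chain, rose in EV-proficient libraries by 1.43 ± 0.42 (SE, adjusted p = 0.00643), a call lost without EV-proficient paclitaxel replicate 2 (1.04); the value was 0.32 ± 0.42 (SE, adjusted p = 0.521) in EV-deficient libraries, where the groups overlapped.

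Col27a1, a fibrillar collagen of cartilage, ran opposite to Col5a1. Col27a1 stood at 0.244, 0.55 and 0.82 CPM (EV-proficient DMSO), 1.07, 1.35 and 0.607 CPM (EV-proficient paclitaxel), 1.53, 1.5 and 1.75 CPM (EV-deficient DMSO) and 0.522, 0.476 and 0.705 CPM (EV-deficient paclitaxel). It fell in EV-deficient libraries without overlap, with a log2 fold change of -1.48 ± 0.37 (SE, adjusted p = 0.0016), and the interaction was -2.44 ± 0.54 (SE, adjusted p = 0.000978). In EV-proficient libraries the groups overlapped; the value was 0.96 ± 0.39 (SE, adjusted p = 0.0419), and the call was lost with DESeq2 (0.93), in a fit of only the groups compared (0.97), without EV-proficient DMSO replicate 1 (0.61), without EV-proficient DMSO replicate 2 (0.99), without EV-proficient paclitaxel replicate 1 (0.89) or without EV-proficient paclitaxel replicate 2 (0.64). Col1a1 stood at 0.512, 0.287 and 0.878 CPM (EV-proficient DMSO), 0.514, 1.12 and 0.85 CPM (EV-proficient paclitaxel), 0.642, 0.688 and 0.899 CPM (EV-deficient DMSO) and 1.58, 1.41 and 1.8 CPM (EV-deficient paclitaxel). Col1a1, the major chain of connective tissue, rose in EV-deficient libraries by 1.11 ± 0.36 (SE, adjusted p = 0.0113) without overlap, a call lost without EV-deficient DMSO replicate 1 (1.00). In EV-proficient libraries its groups overlapped, at 0.59 ± 0.40 (SE, adjusted p = 0.21), which passed without EV-proficient DMSO replicate 3 (1.05). Col1a2 and Col3a1, which join Col1a1 in most fibroblast matrix, had group means of 0.0655 to 0.406 CPM and passed in neither paclitaxel comparison, although Col3a1 passed in EV-proficient libraries in a fit of only the groups compared (1.55), against 1.53 ± 0.82 (SE, adjusted p = 0.117) in the fit of all libraries. The sum of the fibroblast markers was higher under paclitaxel, as given above, and its members differed. Pdgfra rose under both labels (group means 1.22 and 1.77 CPM under DMSO, 4.25 and 4.23 CPM under paclitaxel), as did Dcn (1.71 and 2.88 on the log2 scale). Acta2, the actin of activated fibroblasts and smooth muscle, passed as lower in EV-proficient libraries (0.236 CPM under DMSO, at least 3.03-fold above the floor of 3 counts per library that paclitaxel did not exceed) and did not pass in EV-deficient libraries (0.122 to 0.0351 CPM). Thy1 passed in neither, and Pdgfrb, Dpt, Lum and Pi16 were not tested, with group means of at most 0.186 CPM. Averaged over both labels, all 4 tested fibroblast markers passed, 3 higher and 1 lower under paclitaxel, against 68.4% of all genes tested. The part of these markers in the fibrillar values was not tested.

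Type VI chains, which form beaded filaments around cells, changed at low levels. Col6a1 stood at 0.39, 0.527 and 0.439 CPM (EV-proficient DMSO), 0.672, 0.721 and 0.688 CPM (EV-proficient paclitaxel), 0.0892, 0.0417 and 0.0219 CPM (EV-deficient DMSO) and 2.35, 1.77 and 2.41 CPM (EV-deficient paclitaxel). Col6a1 rose in EV-deficient libraries by 5.29 ± 0.43 (SE, adjusted p = 7.36e-10), from the lowest group to the highest; the EV-deficient DMSO libraries held 5, 2 and 1 counts, a mean under the CPM that 3 counts give, so the size of this value is uncertain. In EV-proficient libraries, also without overlap, it did not pass, at 0.62 ± 0.35 (SE, adjusted p = 0.143), and the interaction was 4.68 ± 0.58 (SE, adjusted p = 1.14e-06). Col6a5 stood at 0.585, 0.263 and 0.234 CPM (EV-proficient DMSO), 0.336, 0.176 and 0.405 CPM (EV-proficient paclitaxel), 5.87, 4.9 and 4.03 CPM (EV-deficient DMSO) and 0.0559, 0 and 0.0984 CPM (EV-deficient paclitaxel). Col6a5, a type VI chain known from skin, exceeded 1 CPM in EV-deficient DMSO alone, and fell with paclitaxel under that label, with a log2 fold change of -6.41 ± 0.49 (SE, adjusted p = 2.09e-10). The EV-deficient paclitaxel libraries held 3, 0 and 6 counts, also a mean under the CPM of 3 counts, and each value set against that group is uncertain in size. In EV-proficient libraries the groups overlapped, at -0.33 ± 0.47 (SE, adjusted p = 0.565), and the interaction was -6.08 ± 0.71 (SE, adjusted p = 5.21e-07). Col6a2 and Col6a3, the partners that Col6a1 needs for a complete molecule, had group means of 0.0963 to 0.642 CPM. Col6a2 passed as higher in EV-deficient libraries (2.68) and Col6a3 in neither comparison. Col6a4 and Col6a6 were not tested, with no library above 0.18 CPM.

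Of the 4 transmembrane collagens, which sit in the cell membrane with their helix outside, Col25a1 (ENSMUSG00000058897, chr3:130131501-130599877, plus strand), known from neurons, moved most. Col25a1 stood at 0, 0.0239 and 0.0293 CPM (EV-proficient DMSO), 1.96, 2.62 and 1.9 CPM (EV-proficient paclitaxel), 0.5, 0.334 and 0.285 CPM (EV-deficient DMSO) and 1.34, 1.56 and 1.41 CPM (EV-deficient paclitaxel). The EV-proficient DMSO libraries held at most 1 count each, so the EV-proficient paclitaxel mean was at least 27.8-fold higher than the floor of 3 counts per library. In EV-deficient libraries it rose by 1.92 ± 0.33 (SE, adjusted p = 3.06e-05) without overlap. The interaction, -4.85 ± 0.71 (SE, adjusted p = 1.04e-05), rests on a group at the floor, and its size depends on the prior count of the fit. Col17a1, the hemidesmosome collagen of basal keratinocytes, had group means of 0.399 to 0.48 CPM and Col23a1 of 0.278 to 0.647 CPM, and neither passed in any of the 5 planned comparisons. In EV-deficient libraries Col23a1 was 1.22 ± 0.53 (SE, adjusted p = 0.0524), which passed with median-of-ratios factors (1.23), with upper-quartile scaling (1.40), without EV-deficient DMSO replicate 2 (1.54) or without EV-deficient paclitaxel replicate 1 (1.63). Averaged over both labels Col23a1 passed, at 1.04 ± 0.38 (SE, adjusted p = 0.0213), a call lost with limma-voom (0.90), without EV-deficient DMSO replicate 1 (0.93), without EV-proficient paclitaxel replicate 2 (0.96), without EV-deficient paclitaxel replicate 2 (0.89) or without EV-deficient paclitaxel replicate 3 (0.87). Col13a1 was not tested in the main fit. It had 0 counts in all 6 DMSO libraries, and its EV-proficient paclitaxel mean was at least 3.67-fold higher than the floor of 3 counts. For paclitaxel in EV-proficient libraries Col13a1 passed with no low-count filter and with some single libraries left out. Of the last 2 members, Col26a1 passed as higher in EV-proficient libraries (3.36, group means of 0.0845 to 0.86 CPM) and Col28a1 was not tested in the main fit. For the average over both labels Col28a1 passed with no low-count filter, with DESeq2 and with some single libraries left out.

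EV-deficient and EV-proficient libraries were compared within each treatment to ask what changes where EV release is blocked. Under DMSO 10 collagens passed, 7 higher and 3 lower in EV-deficient libraries, against 23% of all genes tested, 12.4% higher and 10.6% lower. The larger direction over all genes, 53.9% of those called being higher, turned with median-of-ratios factors (48.2%), upper-quartile scaling (47.1%), DESeq2 (49.5%) and a fit of only the groups compared (49.1%). Under paclitaxel 13 passed, 8 higher and 5 lower, against 37.8% of all genes, 16% higher and 21.8% lower. Higher genes were 42.4% of all that passed, a share that turned to 58.2% under upper-quartile scaling. The larger direction of the collagens under paclitaxel did not hold throughout: 6 were higher and 8 lower with no low-count filter, 6 were higher and 8 lower without EV-proficient paclitaxel replicate 3, 5 were higher and 6 lower without EV-deficient paclitaxel replicate 1, and 5 were higher and 5 lower without EV-deficient paclitaxel replicate 3. As shares of the 36 tested these are 27.8% and 36.1%, near the background, and the median log2 differences were 0.08 and 0.08 beside 0.04 and -0.0047 over all genes. The 6 collagens that passed under both treatments were Col4a1, Col5a1, Col6a1, Col6a5, Col8a1 and Col16a1, and all 6 had opposite signs. That is 16.7% of the 36, and 15% of all genes tested did the same. Of the 2834 genes called under both treatments, 96% had opposite signs, so the reversal ran across the genes tested and was not particular to collagens. Col5a1 was -1.44 ± 0.25 (SE, adjusted p = 0.000144) under DMSO and 2.12 ± 0.24 (SE, adjusted p = 6.31e-07) under paclitaxel, Col6a1 -3.03 and 1.65, and Col4a1 -0.41 and 0.22. Col8a1 was 0.73 ± 0.08 (SE, adjusted p = 1.02e-06) and -0.88 ± 0.08 (SE, adjusted p = 6.53e-08), Col16a1 1.54 and -1.33, and Col6a5 3.75 and -2.33. The paclitaxel difference of Col4a1 was lost without EV-proficient paclitaxel replicate 3 (0.14) or without EV-deficient paclitaxel replicate 3 (0.18). Under DMSO Col7a1 (0.41), Col20a1 (1.15), Col27a1 (1.58) and Col25a1 also passed, each higher in EV-deficient libraries; the Col25a1 mean there was at least 4.81-fold higher than the floor of 3 counts per library. Col4a2, at -0.18 ± 0.07 (SE, adjusted p = 0.078), did not pass under DMSO, and it passed with median-of-ratios factors (-0.20), with upper-quartile scaling (-0.21), with a filter of 1 CPM in 3 libraries (-0.19), with DESeq2 (-0.20) or in a fit of only the groups compared (-0.21). The call of Col20a1 was lost with limma-voom (1.09), without EV-proficient DMSO replicate 2 (1.12), without EV-proficient DMSO replicate 3 (1.04), without EV-deficient DMSO replicate 2 (0.94) or without EV-deficient DMSO replicate 3 (1.16), and that of Col7a1 as given above. Under paclitaxel Col5a3 (2.96), Col12a1 (1.78), Col6a2 (1.61), Col9a2 (1.06) and Col1a1 (0.94) passed as higher and Col18a1 (-0.37) and Col26a1 (-1.9) as lower. Of these, Col1a1 was lost with no low-count filter (0.92), with DESeq2 (0.96), without EV-proficient paclitaxel replicate 1 (0.67), without EV-proficient paclitaxel replicate 3 (0.94), without EV-deficient paclitaxel replicate 1 (0.95) or without EV-deficient paclitaxel replicate 3 (0.84), and Col9a2 without EV-proficient paclitaxel replicate 1 (0.96), without EV-proficient paclitaxel replicate 2 (1.06) or without EV-deficient paclitaxel replicate 1 (1.00). Col6a2 was lost with no low-count filter (1.58), with DESeq2 (1.62), in a fit of only the groups compared (1.64), without EV-proficient paclitaxel replicate 1 (1.35), without EV-proficient paclitaxel replicate 2 (1.35), without EV-deficient paclitaxel replicate 1 (1.55) or without EV-deficient paclitaxel replicate 3 (1.32). Col26a1 was lost with upper-quartile scaling (-1.80), without EV-proficient paclitaxel replicate 2 (-1.94), without EV-proficient paclitaxel replicate 3 (-1.48), without EV-deficient paclitaxel replicate 2 (-1.52) or without EV-deficient paclitaxel replicate 3 (-1.51), and was -3.14 without EV-deficient paclitaxel replicate 1. Col27a1, at -0.86 ± 0.38 (SE, adjusted p = 0.0818), did not pass under paclitaxel, and it passed without EV-proficient paclitaxel replicate 3 (-1.09). Other collagens short of the threshold also passed under some alternatives: Col2a1 and Col4a5 under DMSO, and Col7a1, Col11a2 and Col25a1 under paclitaxel. With the filter of 1 CPM Col5a3, Col6a2 and Col26a1 were not tested, nor was Col6a5 in the fit of only the groups compared. The dngfr row also had opposite orders under the 2 treatments, as given above; its bearing on these signs was not tested. A paclitaxel effect that differed between the derivatives and an exchange of the EV labels within 1 treatment would give the same crossed signs, and they cannot be told apart here; in the second case each interaction would be the sum, up to its sign, of the differences between the derivatives under the 2 treatments.

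**Figure D4:**
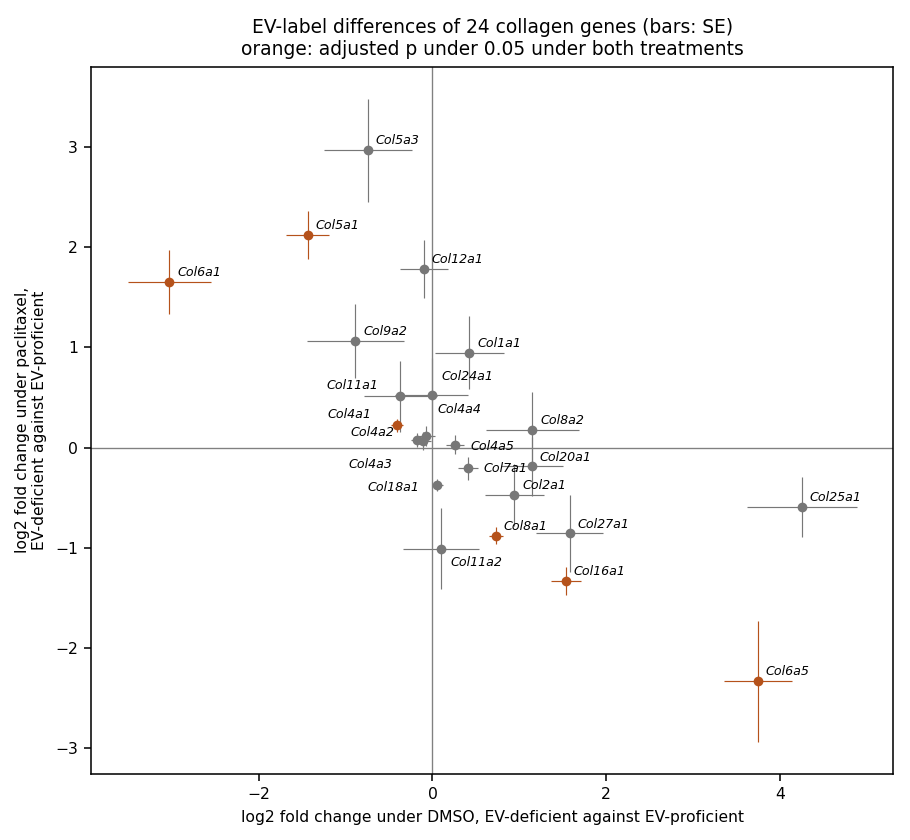
Log2 difference of EV-deficient from EV-proficient libraries under DMSO (horizontal) and under paclitaxel (vertical) for the 24 collagen genes with values given in every library; bars are SE. The 6 orange genes passed under both treatments and all lie in the upper left or lower right part.

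The interaction, the difference between the paclitaxel effects of the 2 labels as labelled, passed for 16 collagens, 6 positive and 10 negative. Over all genes 40.7% passed, 16.9% positive and 23.8% negative, and the collagen share of the 36 was 44.4%. The median was 0.18 for collagens and -0.04 for all genes. With upper-quartile scaling the positive share of all genes that passed was 53.9% and not 41.4%, and that of collagens 44.4% and not 37.5%. By class, 4 of 11 fibrillar, 3 of 9 basement membrane and 9 of the 16 tested among the 24 other collagens passed. The basement membrane interactions were the smallest of those that passed, at 0.63 for Col4a1, -0.62 for Col7a1 and -0.43 for Col18a1; every other collagen interaction that passed was larger in size than these 3.

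Averaging the paclitaxel effects of both labels gave values for the other collagens with an interaction that do not depend on which group of a treatment carries which label. Col5a3 averaged 0.44 ± 0.37 (SE, adjusted p = 0.297), Col12a1 -0.31 ± 0.20 (SE, adjusted p = 0.175) and Col27a1 -0.26 ± 0.27 (SE, adjusted p = 0.409), and none of these, each called in opposite directions within the labels, passed. Col2a1 averaged 1.08 ± 0.23 (SE, adjusted p = 0.00027), Col20a1 2.01 ± 0.23 (SE, adjusted p = 1.1e-07) and Col9a2 3.28 ± 0.32 (SE, adjusted p = 9.74e-09), all higher under paclitaxel. Col6a1 averaged 2.95 ± 0.28 (SE, adjusted p = 6.37e-09) and Col6a5 -3.37 ± 0.35 (SE, adjusted p = 1.96e-08), both uncertain in size for the low counts given above. Col25a1, with a group at the floor, passed as higher (adjusted p = 8.81e-11). Col26a1 averaged 1.57 ± 0.57 (SE, adjusted p = 0.0191), a call lost without EV-proficient DMSO replicate 2 (1.26), without EV-proficient paclitaxel replicate 3 (1.34) or without EV-deficient paclitaxel replicate 1 (0.92), with 2.37 without EV-proficient DMSO replicate 3.

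Genes that modify, process, bind or sense collagen were followed as lists, chosen with earlier results of these data known. Of 19 genes of chain modification and folding, 7 rose and 10 fell with paclitaxel in EV-proficient libraries and 10 rose and 7 fell in EV-deficient libraries, with medians of -0.31 and 0.23 beside 0.05 and 0.07 over all genes. As shares, 89.5% and 89.5% of the 19 passed, against 58.2% (31.1% higher, 27.1% lower) and 62.9% (32.4% higher, 30.5% lower) of all genes tested. The interaction passed for 14 of the 19, 9 positive and 5 negative, or 73.7% against 40.7% of all genes. Serpinh1 (ENSMUSG00000070436, chr7:99345376-99353239, minus strand), the collagen chaperone, stood at 40.4, 48.6 and 47.3 CPM in EV-proficient DMSO and 12, 14.1 and 12.3 CPM in EV-proficient paclitaxel. The EV-deficient values were 9.37, 8.74 and 10.2 CPM under DMSO and 46.2, 48.9 and 43.3 CPM under paclitaxel. EV-proficient DMSO and EV-deficient paclitaxel overlapped and lay above the others. The low groups, EV-proficient paclitaxel and EV-deficient DMSO, were those that were low for Col5a1, whose high groups did not overlap. Its log2 fold changes with paclitaxel were -1.82 ± 0.09 (SE, adjusted p = 1.2e-12) and 2.29 ± 0.10 (SE, adjusted p = 3.23e-14), and the interaction was 4.11 ± 0.13 (SE, adjusted p = 8.66e-16). P3h4 stood at 2.1, 2.27 and 2.66 CPM (EV-proficient DMSO), 19.7, 22 and 19.6 CPM (EV-proficient paclitaxel), 7.6, 7.92 and 6.64 CPM (EV-deficient DMSO) and 7.25, 6.29 and 6.4 CPM (EV-deficient paclitaxel). P3h4, a scaffold of prolyl and lysyl hydroxylation, rose by 3.13 ± 0.14 (SE, adjusted p = 9.7e-14) in EV-proficient libraries; in EV-deficient libraries the groups overlapped, at -0.15 ± 0.12 (SE, adjusted p = 0.283). The average over both labels was 1.49 ± 0.09 (SE, adjusted p = 3.73e-12) for P3h4 and 0.23 ± 0.07 (SE, adjusted p = 0.00328) for Serpinh1, the latter 0.36 with upper-quartile scaling. P3h2, a prolyl hydroxylase that acts on type IV collagen, changed by -0.47 and -1.9, with an interaction of -1.43; the first was lost without EV-proficient DMSO replicate 1 (-0.37) or without EV-proficient DMSO replicate 2 (-0.43). Of the exon bases of P3h2, 28.4% lie under an antisense gene.

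Of 8 genes of procollagen cleavage, 6 were tested; 2 rose and 3 fell with paclitaxel in EV-proficient libraries, and 3 rose and 1 fell in EV-deficient libraries, with medians of -0.27 and 0.66. These are 83.3% and 66.7% of the genes tested, against 58.2% and 62.9% of all genes. Pcolce stood at 23.7, 20.8 and 23.7 CPM (EV-proficient DMSO), 9.68, 10.5 and 9.14 CPM (EV-proficient paclitaxel), 10.9, 9.59 and 10.4 CPM (EV-deficient DMSO) and 18, 15.4 and 18.8 CPM (EV-deficient paclitaxel). Pcolce, which speeds removal of the procollagen tail, changed by -1.21 ± 0.10 (SE, adjusted p = 2.5e-09) and 0.76 ± 0.10 (SE, adjusted p = 1.35e-06), without overlap under either label, and its interaction was 1.97. Its relative Pcolce2 fell under both labels (-0.86 and -0.83), and the procollagen protease Adamts14 rose under both (1.35 and 1.97). Of 6 crosslinking genes 4 rose and 1 fell in EV-proficient, and 2 rose and 1 fell in EV-deficient libraries, with medians of 1.35 and 0.02; 83.3% and 50% of them passed, against the same shares of all genes. The lysyl oxidase Loxl4 was the one named by the rule, at -0.16 and -0.64; the first was lost with upper-quartile scaling (-0.10), with no low-count filter (-0.14), in a fit of only the groups compared (-0.15), without EV-proficient DMSO replicate 2 (-0.14) or without EV-proficient paclitaxel replicate 3 (-0.15), and was -0.27 without EV-proficient paclitaxel replicate 2.

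Of 8 receptors 4 rose and 3 fell in EV-proficient, and 3 rose and 1 fell in EV-deficient libraries, with medians of 0.50 and 0.01. Those that passed were 87.5% and 50% of the receptors and 58.2% and 62.9% of all genes. Itga2 stood at 409, 354 and 346 CPM (EV-proficient DMSO), 341, 313 and 318 CPM (EV-proficient paclitaxel), 235, 251 and 232 CPM (EV-deficient DMSO) and 489, 557 and 452 CPM (EV-deficient paclitaxel). Itga2, the alpha chain of the main epithelial collagen integrin, rose in EV-deficient libraries without overlap by 1.06 ± 0.08 (SE, adjusted p = 8.42e-11). In EV-proficient libraries all 3 paclitaxel values were below the DMSO values, at -0.19 ± 0.08 (SE, adjusted p = 0.0347), a call lost with upper-quartile scaling (-0.13), with no low-count filter (-0.16) or without EV-proficient DMSO replicate 1 (-0.11). The interaction of Itga2 was 1.25, that of its partner Itgb1 0.64, and that of the collagen receptor kinase Ddr1 -0.48. Of 10 collagen-binding matrix genes, 8 were tested, of which 6 rose and 2 did not pass in EV-proficient, and 3 rose and 3 fell in EV-deficient libraries, with medians of 1.34 and -0.19, and 75% and 75% of the 8 passed. Sparc stood at 14, 18.2 and 18.4 CPM (EV-proficient DMSO), 109, 118 and 120.0 CPM (EV-proficient paclitaxel), 83.7, 77.5 and 76.7 CPM (EV-deficient DMSO) and 52.6, 48.7 and 46.7 CPM (EV-deficient paclitaxel). Sparc, a secreted binder of fibrillar and type IV collagen, had 4 groups without overlap and log2 fold changes of 2.78 ± 0.09 (SE, adjusted p = 1.04e-15) and -0.69 ± 0.08 (SE, adjusted p = 2.53e-07); the interaction was -3.47 and the average over both labels 1.05 ± 0.06 (SE, adjusted p = 1.58e-12). Hspg2 stood at 67.6, 61.9 and 67.3 CPM (EV-proficient DMSO), 134, 134 and 116 CPM (EV-proficient paclitaxel), 139.7, 150.0 and 169.6 CPM (EV-deficient DMSO) and 68.8, 91.5 and 123 CPM (EV-deficient paclitaxel). Hspg2, which encodes the basement membrane proteoglycan perlecan, changed by 0.97 ± 0.13 (SE, adjusted p = 1.74e-06) and -0.7 ± 0.13 (SE, adjusted p = 7.02e-05), with no overlap under either label and an interaction of -1.66. Fn1 (fibronectin) had an interaction of -0.46.

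**Figure D5:**
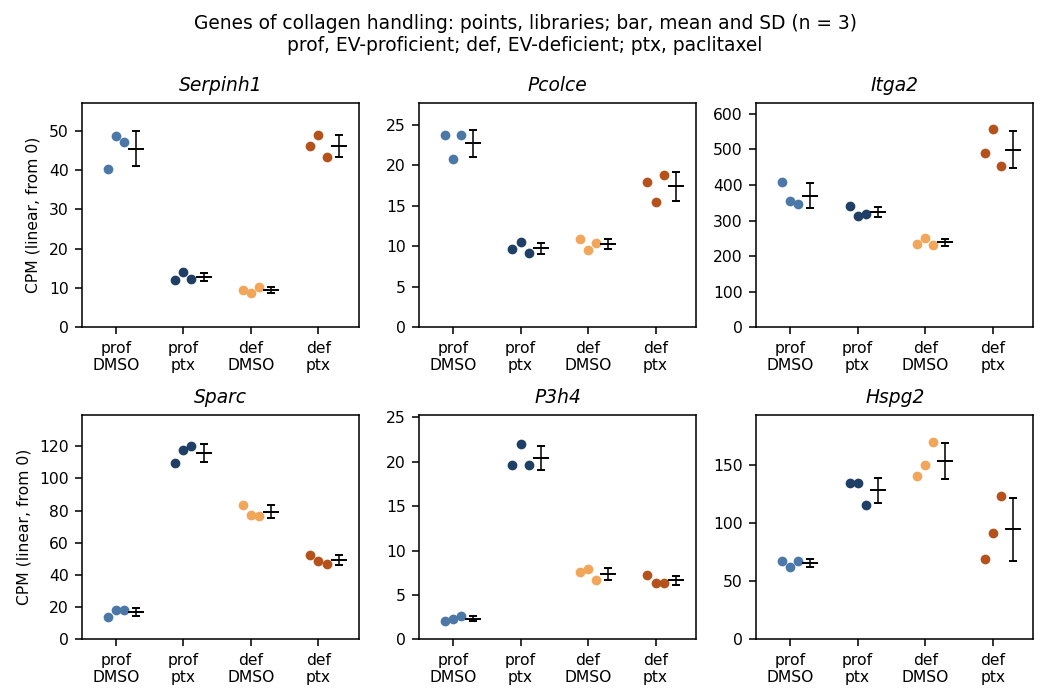
CPM (linear axis from 0) of 6 genes that fold, cleave, bind or sense collagen; points are libraries, and the bar beside them is the mean with SD (n = 3). Serpinh1 and Pcolce are high in EV-proficient DMSO and EV-deficient paclitaxel, and Sparc and P3h4 are highest in EV-proficient paclitaxel.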

How the data were processed

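Polyadenylated RNA of 12 MOC2 libraries was sequenced from a dUTP stranded kit, per the labels' protocols. The authors deposited whole read counts per gene, not normalized; STAR 2.5.0a and GRCm38 are named in the submitters' processing notes, and the counting program, annotation release and use of strand are not given in the sources used here. The table has 55423 rows, of which 2 added rows (gfp and dngfr) were kept out of library sizes and tests; 3995 genes had no symbol (at most 0.102% of a library's counts), and 0 columns belonged to other samples.

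Counts were fitted in R 4.3.3 with edgeR 4.0.16: genes kept by filterByExpr (minimum count 10, 18108 of 35104 with any count), TMM scaling (factors 0.89 to 1.15), and a single quasi-likelihood model, 1 mean for each group, without covariates. P-values were adjusted by Benjamini-Hochberg over all genes of a comparison, threshold 0.05. CPM uses the scaled library sizes, SE is the log2 fold change over the square root of F, and a group with at most 3 counts in each library was at the floor; floors cover counting error only. The script was tested on simulated data. Chi-square per degree of freedom between replicates was 4.50 to 32.3, so no pair was counted as 1 sample. Alternatives used DESeq2 1.42.0 and limma 3.58.1. Values per library are given for collagens with a group mean of at least 5 CPM, or at least 1 CPM with a change of at least 1 (log2) past the threshold; at most 3 genes per handling list are named, those with the largest change past the threshold at a mean of at least 5 CPM. Values of Col4a6, Col5a2, Col6a2, Col9a3, Col15a1, Col23a1 and Col26a1 and of Col3a1, outside this rule, were chosen after they were seen. Lum and Dcn stand in both the collagen-binding and the fibroblast list. The members, lists and rules were chosen with earlier results of these data known. Positions come from GENCODE on GRCm38 and promoters from RefSeq on GRCm38.p6 (35 of 44 collagens matched).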

Additional observations from a re-analysis of the deposited data

Results flagged for a closer look

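The paclitaxel effect differed between the EV labels, in the libraries as labelled and by the interaction test, for 16 collagens, 44.4% of the 36 tested, and for 32 of 47 tested genes of collagen handling, 68.1% of the latter, against 40.7% of all genes tested. Values are given for the collagens and for the 12 handling genes, of 13 picked by the naming rule, whose interaction passed; that of Pcolce2 was 0.03 ± 0.09 (SE, adjusted p = 0.82). Among collagens it was 0.63 for Col4a1, 3.55 for Col5a1, 3.71 for Col5a3, 4.68 for Col6a1, 1.95 for Col9a2 and 1.88 for Col12a1 on the log2 scale, where a positive value means a higher paclitaxel effect under the EV-deficient label. It was -0.62 for Col7a1, -0.43 for Col18a1, -1.42 for Col2a1, -2.44 for Col27a1 and -6.08 for Col6a5, and -1.61 for Col8a1, -2.87 for Col16a1, -1.34 for Col20a1, -4.85 for Col25a1 and -3.58 for Col26a1, of which Col26a1 and Col25a1 rest on a group with few or no counts, as do Col6a1 and Col6a5. Col26a1 was named after its value was seen; its interaction was lost without EV-deficient DMSO replicate 1 (-3.08) and was not tested with the filter of 1 CPM. For the other genes it was 4.11 for Serpinh1, 1.97 for Pcolce, 1.25 for Itga2, 0.64 for Itgb1 and 0.62 for Adamts14, and -1.43 for P3h2, -3.28 for P3h4, -3.47 for Sparc, -1.66 for Hspg2, -0.48 for Loxl4, -0.48 for Ddr1 and -0.46 for Fn1. These interactions share all 12 libraries. A different paclitaxel effect and an exchange of the EV labels within 1 treatment cannot be told apart here.

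The dngfr row, which no comparison used, reached 12.4 CPM (EV-deficient paclitaxel replicate 3), above every EV-deficient DMSO library. The gfp row was 0 in all 12 libraries.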

How the results depend on the processing

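The total of collagens past the threshold in each comparison stayed within 1.5 times of its value under the alternatives run (other scaling, other filters, DESeq2, limma-voom, a block for replicate number, a fit of the compared groups alone, each library left out). Splits by direction and combinations of calls could move further, as given above for the EV label under paclitaxel. The counts were 23 (19 to 23 with all libraries, 17 to 24 with 1 left out) for paclitaxel in EV-proficient libraries, 25 (20 to 26 with all libraries, 24 to 26 with 1 left out) in EV-deficient libraries and 27 (20 to 29 with all libraries, 26 to 29 with 1 left out) for their average. They were 10 (9 to 12 with all libraries, 8 to 10 with 1 left out) for the EV label under DMSO, 13 (11 to 15 with all libraries, 10 to 14 with 1 left out) under paclitaxel and 16 (15 to 18 with all libraries, 13 to 18 with 1 left out) for the interaction. Of 186 gene values, 141 kept direction and call under each alternative that gave a value; the filter of 1 CPM gave 165 of them and the fit of only the groups compared, which has no interaction or average, 126. The values that changed sign had not passed the test: with upper-quartile scaling Col7a1 in EV-proficient libraries was 0.0272, Col8a1 in EV-deficient libraries 0.0266, P3h4 in EV-deficient libraries 0.0311, and the average effect of Col18a1 0.0559 (-0.07 as fitted). With 1 library left out, Col7a1 in EV-proficient libraries ranged from -0.188 to 0.0636, Col6a5 there from -0.562 to 0.207, and Col11a2 in EV-deficient libraries from -0.129 to 0.624; the cause was not tested. Upper-quartile scaling moved the median of all genes by 0.18 for paclitaxel in EV-deficient libraries, 0.12 for the interaction and 0.12 for the average. It moved the share of higher genes among all that passed from 51.5% to 63.4% for paclitaxel in EV-deficient libraries and from 42.4% to 58.2% for the EV label under paclitaxel; the collagen shares moved from 76% to 80% and from 61.5% to 66.7%. Same-numbered libraries did not deviate together (0 of 18 pairs correlated over 0.1, range -0.0812 to 0.097, and 8 of 18 best with their own number), so the numbers were not taken as pairs; with the replicate block the interaction passed for 17 collagens and the average for 28, and the other 4 counts were the same. Depth limits the collagens under 1 CPM, for which 3 counts correspond to 0.0492 to 0.121 CPM.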
